A study of Mus musculus with 5 samples.

Results

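Retinal progenitors change with time in the cell types they make, and the genes described here are 10 that mark that timing: the early progenitor genes Fgf15, Sfrp2, Foxp1, Ikzf1, Hmga2 and Lin28b, and the late progenitor genes Nfia, Nfib, Nfix and Casz1. They were taken by symbol from a table of 24594 genes, and all 10 were found and passed the filter on low values. The table holds 5 mouse RNA libraries. The 2 control libraries came from retinas given a CAG-GFP plasmid, and the other 3 from retinas labelled as given CAG-Zfp292. In both groups the plasmid was electroporated into living pups at postnatal day 0, the retinas were taken 4 days later, and GFP-positive cells were sorted. CAG is a strong, broadly active promoter, so the plasmids are not restricted to one cell type, and electroporation reaches only part of a retina. The labels name no strain or sex, no number of animals per library and no separate animals for the libraries. The p-values therefore measure the spread among these 5 libraries alone, which may be technical.

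During retinal development multipotent progenitors first give ganglion cells, horizontal cells, cones and amacrine cells, and later rods, bipolar cells and Müller glia. The switch is intrinsic in large part, and transcription factors and RNA-binding proteins set it: Ikzf1 and Foxp1 favour early competence, Casz1 and the nuclear factor I (NFI) genes favour late fates and the exit from division. Lin28b and Hmga2 belong to a general developmental timer, in which the let-7 microRNAs, low in young tissue and high in mature tissue, repress both.

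Of the 10 genes, 2 rose in the libraries labelled Zfp292-OE, both from the early set: Fgf15, 2.91-fold, and Sfrp2, 1.91-fold. No late gene passed the test. Nfix lay lower in all 3 of these libraries than in either control without passing it, and the other 7 genes overlapped between the groups. The test was limma's moderated test on log2(value + 1) over 16316 genes, with a Benjamini-Hochberg adjusted p under 0.05 as the threshold. Of all genes tested, 17.4% passed it, 10% upwards (1632 genes) and 7.38% downwards (1204 genes). The 2 of 10 genes that passed are close to that share, so the count itself is no result about these genes. At an unadjusted p under 0.05 the late count by limma was 1 (Nfix), and edgeR and DESeq2 each called 0 late genes at an adjusted p under 0.05. Scaled to equal totals instead, 908 genes rose and 1977 fell, and the median log2 fold change of all genes moved by -0.22. Relative to that median, the changes were 1.60 for Fgf15, 0.99 for Sfrp2 and -0.45 for Nfix under both scalings. Groups that do not overlap were found for 49.9% of all genes tested, with the labelled libraries above in 24.3% and below in 25.7%, and for 3 of these 10 genes. The median log2 fold change was 0.38 over the early genes and -0.33 over the late genes, beside -0.06 over all genes tested.

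The 5 libraries held 103096224 to 137683716 reads each. The reads counted under Zfp292 itself (Entrez 30046), a zinc finger gene on chromosome 4, stood at 13288 and 14756 in the controls and at 14631, 13197 and 15534 in the libraries labelled Zfp292-OE. These levels overlap, and the difference was 0.04 on the log2 scale (SE 0.14, limma adjusted p = 0.87), a fold change of 1.03 with a 95% interval of 0.823 to 1.29. The labels do not say which part of Zfp292 the plasmid carries, so whether its RNA would be counted under the gene is not known here. The count does not show the overexpression, and the libraries are named by their label, as labelled libraries 1, 2 and 3. Leaving out either control left 1 gene past the threshold among all tested, and that gene was in the list of rod markers read below. No call on the 10 genes or on another gene named here held without both controls. All levels are the deposited normalised counts, in which a read is worth 0.770 to 1.14 units depending on the library.

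**Figure D1:**
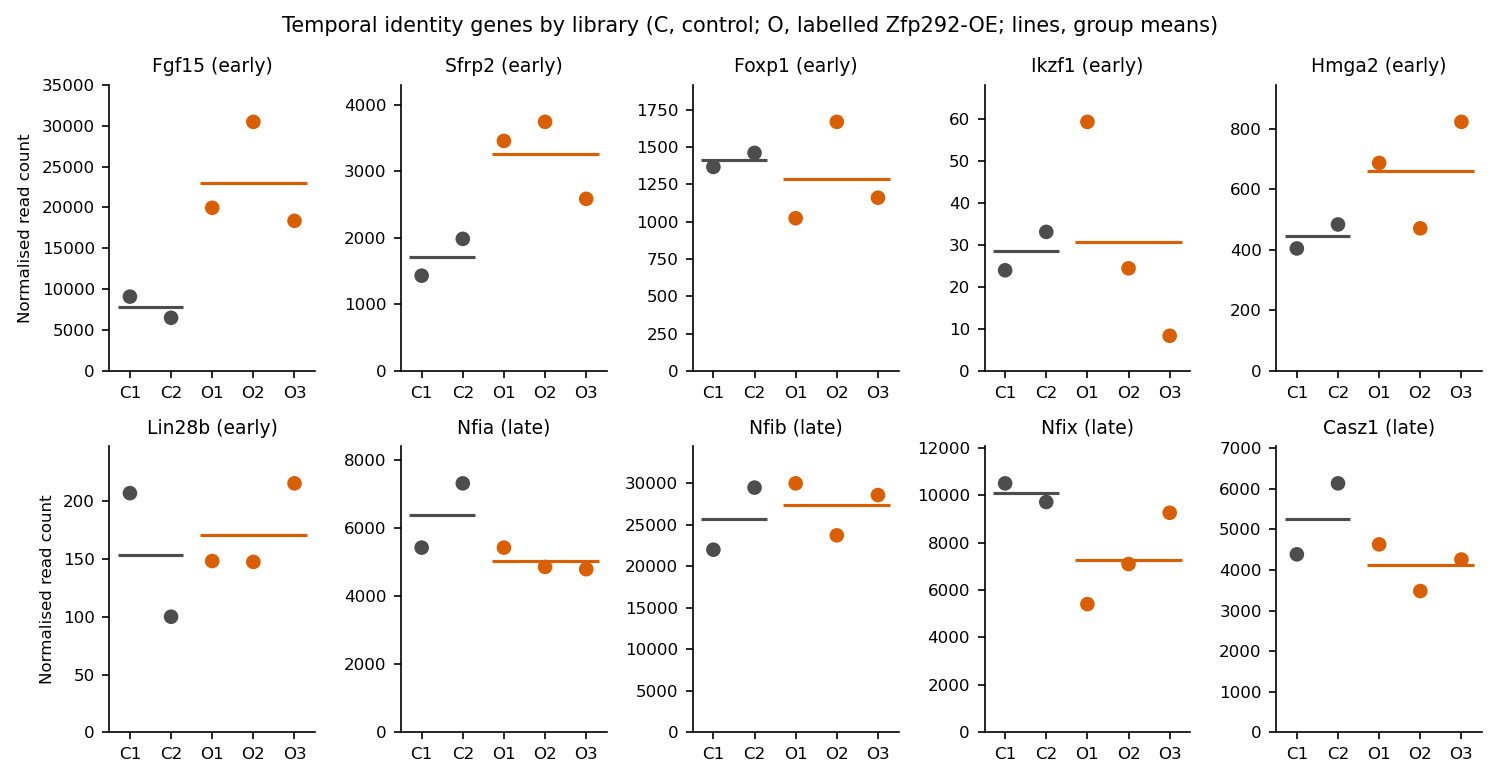
Level of each of the 10 genes in each library, as deposited normalised counts on a linear axis from 0. Each point is 1 library (C, control; O, labelled Zfp292-OE) and the lines are group means. Fgf15 and Sfrp2 are the genes whose 3 labelled libraries all lie above both controls, and Nfix is the gene whose labelled libraries all lie below.

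Fgf15 (Entrez 14170; GRCm38 chromosome 7, 144896532 to 144900953) encodes a secreted fibroblast growth factor of the neural tube and optic cup, and its RNA is abundant in dividing retinal progenitors. Its level was 9092 and 6499 in the controls and 19958, 30471 and 18361 in labelled libraries 1, 2 and 3. The lowest labelled library held more than the higher control, and the 3 spread widely among themselves, with library 2 far above the other two. Controls averaged 7795 ± 1833 (SD, n = 2) and labelled libraries 22930 ± 6579 (SD, n = 3). This is a log2 fold change of 1.54 (SE 0.23, limma adjusted p = 0.0024), with a 95% interval for the fold change of 2.03 to 4.15. It was 1.78 without control 1 (limma adjusted p = 0.060) and 1.30 without control 2 (limma adjusted p = 0.15), and the call held in the other 13 of 15 alternatives. Antisense gene models, with no rows of their own, cover 25.7% of the exon bases of Fgf15, and the sources do not say whether counting used strand.

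Because Fgf15 signals through receptor tyrosine kinases and the MAP kinase cascade, 17 further genes of that route (ligands, receptors, feedback inhibitors and target factors) were read beside it. Of these, 3 rose, 0 fell and 14 did not pass, and the median log2 fold change was 0.00. The share past the threshold, 17.6%, was close to the 17.4% of all genes tested, so the count is no result about this route. The 3 that rose were Dusp6, a phosphatase that is induced by ERK and switches it off, Etv5, an ETS factor downstream of the same cascade, and Fgf9, another FGF ligand. Dusp6 stood at 5132 and 4880 in the controls and at 7439, 9543 and 10088 in the labelled libraries, a log2 fold change of 0.84 (SE 0.18, limma adjusted p = 0.012). The changes were 0.67 for Etv5 (SE 0.17, limma adjusted p = 0.024) and 0.72 for Fgf9 (SE 0.16, limma adjusted p = 0.017). Both of these calls were lost with quantile normalisation (limma adjusted p = 0.090 and 0.12) and with equal totals (limma adjusted p = 0.10 and 0.0505). They were also lost without labelled library 1, and that on Etv5 without labelled library 2. The number of these genes past the threshold was 1 with libraries scaled to equal totals, 1 without labelled library 1 and 5 with DESeq2.

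Sfrp2 (Entrez 20319; chromosome 3, 83765750 to 83774314) encodes a secreted Frizzled-related protein, which binds Wnt ligands outside the cell. Its promoter is shown because Sfrp2 is one of the pair of genes that rose and NFI proteins, the products of 3 of the late genes, bind the half-site TTGGC. The sequence is RefSeq's for GRCm38.p6, plus strand, chr3:83766071-83766370, from 250 bases before the start to 50 after it. The whole window lies inside the gene span given above, so that start is downstream of the beginning of the span. Matches to TTGGC on either strand are in capitals.

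Sfrp2 promoter: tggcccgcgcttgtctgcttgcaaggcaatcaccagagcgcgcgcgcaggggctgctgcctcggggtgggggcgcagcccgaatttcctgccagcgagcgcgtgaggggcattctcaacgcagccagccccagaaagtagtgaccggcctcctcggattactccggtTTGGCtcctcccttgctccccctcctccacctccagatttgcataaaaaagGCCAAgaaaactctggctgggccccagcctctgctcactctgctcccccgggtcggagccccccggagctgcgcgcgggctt

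The 300 bases are 66% G or C and hold 2 matches, 1 on each strand. A match to these 5 letters occurs in 46.7% of 32851 promoters of this length, and 2 or more in 14.4%, so it describes the letters and not a bound site. Neither GGGAA, the core letters bound by Ikaros proteins (in 62.7% of promoters), nor TGTTTAC, a forkhead core (in 3.65%), occurs in this window on either strand.

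Sfrp2 RNA stood at 1432 and 1985 in the controls and at 3458, 3744 and 2587 in the labelled libraries, with no overlap. Controls averaged 1709 ± 391 (SD, n = 2) and labelled libraries 3263 ± 603 (SD, n = 3), a log2 difference of 0.93 (SE 0.24, limma adjusted p = 0.028), with a 95% interval for the fold change of 1.31 to 2.78. This call was less firm than that on Fgf15 and held in 10 of 15 alternatives. The limma adjusted p was 0.072 with equal totals, 0.19 without control 1, 0.14 without control 2, 0.085 without labelled library 1 and 0.076 without labelled library 2. The log2 fold change over these 5 ran from 0.70 to 1.17. An antisense gene model with no row of its own covers 16.1% of its exon bases.

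Among 13 other genes for secreted Frizzled-related proteins and Wnt receptors, 0 rose and 1 fell (7.69%, beside 17.4% of all genes tested). That gene was Frzb, the secreted Frizzled-related protein also called Sfrp3, at 2243 and 2102 in the controls and 572, 299 and 314 in the labelled libraries. Its log2 fold change was -2.52 (SE 0.36, limma adjusted p = 0.0018). Per kilobase of exon, Sfrp2 made up 34.6% and 43.7% of the summed level of the family in the controls and 71.7%, 73.4% and 70.3% in the labelled libraries. Frzb made up 36% and 30.7%, against 7.89%, 3.89% and 5.67%. For both genes the gap between the groups was wider than the spread within either, while the share of Sfrp1 overlapped, at 5.06% and 8.81% against 10.1%, 7.18% and 9.38%. The share of Sfrp4, at 23.5% and 16.4% against 10.3%, 15.6% and 14.7%, was separated by less than the controls differed from each other.

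Both Fgf15 and Sfrp2 are RNAs of cycling progenitors, and the marker list of cycling cells moved with them. All 20 cell cycle genes rose (median log2 fold change 2.38), and none was at 0 in any library. Their summed level was 70465 to 82383 in the controls and 282009 to 540518 in the labelled libraries. The log2 fold changes of these 20 genes ran from 1.53 to 3.12. Fgf15, at 1.54, lay near the low end of that range, and Sfrp2, at 0.93, lay below it. Mki67, a proliferation marker, is 1 of the 20 genes. The ratio of Fgf15 to Mki67 was 2.76 and 1.48 in the controls and 1.03, 1.32 and 1.5 in the labelled libraries. These overlap only between control 2 and labelled library 3. The part of the cell cycle list in the rise of Fgf15 and Sfrp2 was not tested. In bulk RNA, more cells of a type and more RNA per cell cannot be told apart.

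**Figure D2:**
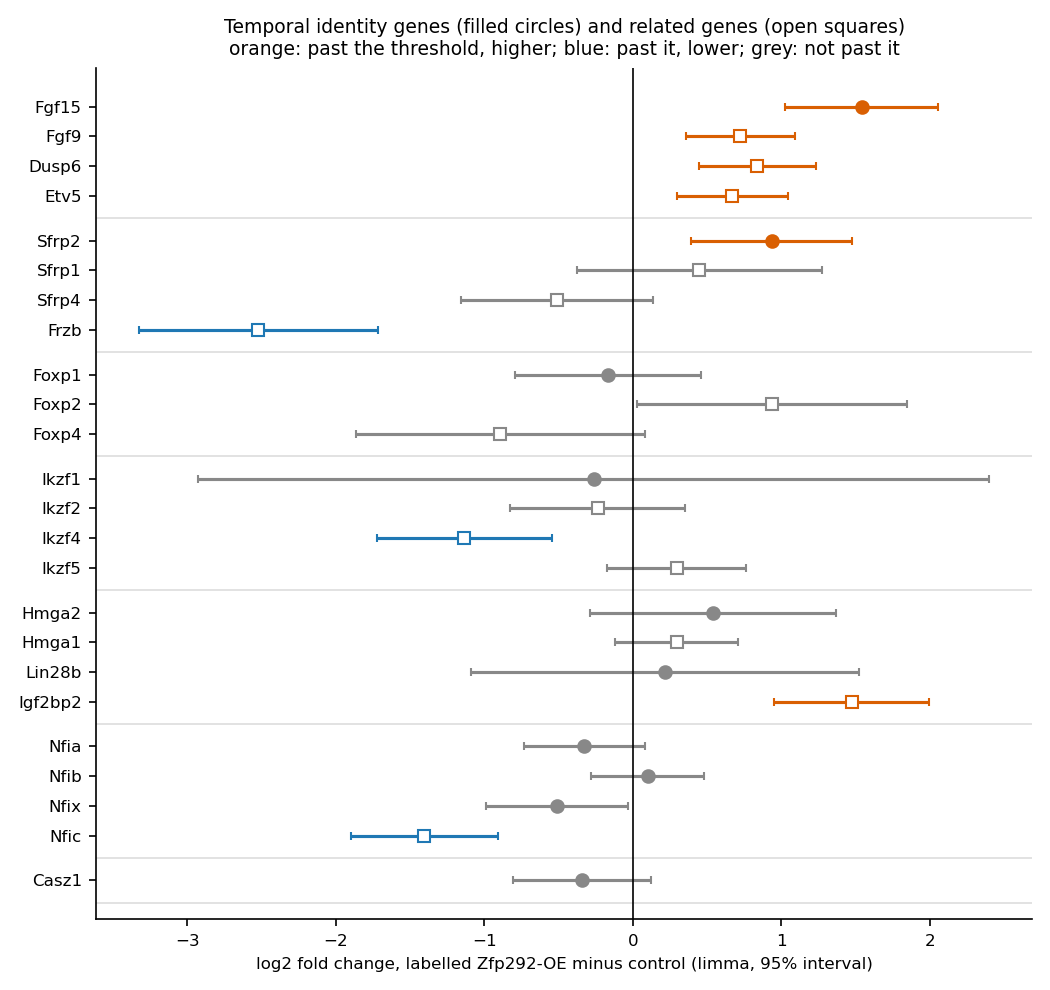
Log2 fold change, labelled libraries minus controls, on the log2(value + 1) scale, for the 10 genes (filled circles) and related genes of their families and pathways (open squares). Bars are 95% intervals, and colour shows genes past the threshold upwards (orange), past it downwards (blue) or not past it (grey). The intervals of Fgf15 and Sfrp2 lie above 0, that of Nfix just below it, and those of the other 7 filled circles cross 0, with that of Ikzf1 the widest, from -2.93 to 2.40.

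The transcription factors of the early set did not pass the test. Foxp1 (Entrez 108655; chromosome 6, 98925342 to 99522746), a forkhead repressor, stood at 1366 and 1459 in the controls and at 1022, 1667 and 1159 in the labelled libraries. The controls lie inside the range of the labelled libraries. Its log2 fold change was -0.17 (SE 0.28, limma adjusted p = 0.71), and the 95% interval of the fold change, 0.576 to 1.37, leaves room for change in either direction. Its 3 paralogues did not pass the test either. Foxp2 was at 322 and 220 in the controls against 501, 630 and 421 in the labelled libraries, a log2 fold change of 0.94 (limma adjusted p = 0.14) with no overlap. Foxp4 was at 425 and 548 against 201, 342 and 255, a log2 fold change of -0.89 (limma adjusted p = 0.19), again with no overlap. Foxp3, known for regulatory T cells, was at most at 32.7 in any library and at 0 in control 2 and labelled library 1.

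Ikzf1 (Entrez 22778; chromosome 11, 11684962 to 11772930) encodes Ikaros, a zinc finger factor that gives mouse progenitors early competence and is also made by blood cells. It was barely detected: 22 and 43 reads in the controls and 52, 26 and 8 in the labelled libraries, or 24, 33.1, 59.3, 24.4 and 8.37 normalised counts. The labelled libraries span the controls on both sides. The log2 fold change was -0.26 (SE 1.19, limma adjusted p = 0.90), with an interval for the fold change of 0.131 to 5.28, so a change of several fold in either direction was not detectable at this depth. Its direction turned to 0.42 without labelled library 3 and to 0.51 with quantile normalisation. The microglia and leukocyte list, cells that also make Ikzf1, had 0 of 15 genes past the test by limma, edgeR or DESeq2 and 2 at an unadjusted limma p under 0.05 (median log2 fold change -1.70). Without labelled library 2, 3 of these 15 genes passed. Its summed level was 4281 and 15348 in the controls and 3665, 6333 and 976 in the labelled libraries, and Ptprc, Csf1r and Tmem119 were at 0 in labelled library 3, where Ikzf1 was lowest. The part of these cells in the Ikzf1 reads was not tested.

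Of the other Ikaros genes only Ikzf4 (Eos), a zinc finger paralogue, passed the test. It fell from 1740 and 1660 in the controls to 878, 725 and 728, a log2 fold change of -1.13 (SE 0.26, limma adjusted p = 0.018). Ikzf5 was at 4971 and 3234 in the controls and 5191, 4553 and 5029 in the labelled libraries, and Ikzf2 (Helios) at 1613 and 2007 against 1671, 1180 and 1804, both overlapping. Ikzf3 (Aiolos, a lymphocyte factor) was at most at 29.1 in any library.

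Lin28b and Hmga2 are shown with the stretches of their RNA that match let-7. Whether let-7 acts at each of these was not measured. The mature microRNAs are RefSeq's, with the seed (bases 2 to 8) in capitals. The let-7 seed is shared by 11 mature mouse microRNAs of the table, that of miR-125b by 5, and that of miR-9 by 1.

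let-7a-5p: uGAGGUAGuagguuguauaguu

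let-7i-5p: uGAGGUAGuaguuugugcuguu

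miR-125b-5p: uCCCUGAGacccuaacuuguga

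miR-9-5p: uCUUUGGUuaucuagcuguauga

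The matches below are the stretches after the stop codon that hold CTACCTC, the complement of the let-7 seed, in capitals. Only these exact letters were searched, in the transcript of each gene with the longest sequence after its stop. They come from the GENCODE vM21 transcripts on GRCm38, minus strand of chromosome 10, and each gene has 4. The first of Lin28b lies at chr10:45381022-45381043 and the first of Hmga2 at chr10:120364224-120364245.

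Lin28b, 36 bases after the stop: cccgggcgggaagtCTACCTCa

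Lin28b, 2410 bases after the stop: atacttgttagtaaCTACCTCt

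Lin28b, 2582 bases after the stop: tttacagcacatggCTACCTCc

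Lin28b, 3998 bases after the stop: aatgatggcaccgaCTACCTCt

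Hmga2, 58 bases after the stop: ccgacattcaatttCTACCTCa

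Hmga2, 1295 bases after the stop: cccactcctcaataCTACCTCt

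Hmga2, 1733 bases after the stop: tgatttgcaaggaaCTACCTCc

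Hmga2, 2591 bases after the stop: atcaaaacacactaCTACCTCt

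The stretch after the stop is 4445 bases in Lin28b and 3014 bases in Hmga2. A let-7 match occurs in 9.04% of 20994 such stretches, and 4 or more in 0.494% of 607 stretches as long as that of Lin28b and in 0.180% of 1113 as long as that of Hmga2. Lin28b also holds 1 match to the miR-125 seed and 4 to the miR-9 seed, and Hmga2 holds 0 and 1. Of stretches as long as that of Lin28b, 30.5% hold a miR-125 match and 0.329% hold 4 or more miR-9 matches, and of those as long as that of Hmga2, 25.7% hold a miR-9 match. Among the other 8 genes Casz1 holds 3 miR-125 matches, as many as 0.308% of 1299 stretches of its length, and Foxp1, Ikzf1 and Nfib hold 1 each. Foxp1 holds 2 miR-9 matches and Nfia and Nfib 1 each. For let-7, Nfia holds 1 match, and Fgf15, Sfrp2, Foxp1, Ikzf1, Nfib, Nfix and Casz1 hold 0.

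Lin28b (Entrez 380669; chromosome 10, 45376617 to 45486314) encodes an RNA-binding protein that blocks let-7 maturation. Its RNA was scarce, at 207 and 100 in the controls and 148, 148 and 216 in the labelled libraries. The difference between the controls was wider than that across the labelled libraries. On the log2 scale the difference was 0.22 (SE 0.59, limma adjusted p = 0.83), with an interval for the fold change of 0.470 to 2.88, and it was -0.30 without control 2. Its paralogue Lin28a had 58 and 2 reads in the controls and 0 in each labelled library, and its fitted change did not pass the test (limma adjusted p = 0.37).

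Hmga2 (Entrez 15364; chromosome 10, 120361268 to 120476469) encodes a chromatin protein of young stem and progenitor cells. Its level was 404 and 484 in the controls and 687, 471 and 822 in the labelled libraries. Labelled libraries 1 and 3 lie above both controls and labelled library 2 between them. On the log2 scale Hmga2 differed by 0.54 (SE 0.37, limma adjusted p = 0.345), with an interval for the fold change of 0.818 to 2.58. The related Hmga1 made up 96.2% to 98.2% of the summed per-kilobase level of the pair in every library, at 4987 and 6584 in the controls and 6489, 8103 and 6599 in the labelled libraries (log2 fold change 0.29, limma adjusted p = 0.30).

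Of 18 further genes tested in the Lin28 and let-7 axis, 1 rose, 0 fell and 17 did not pass. Their median was -0.15 on the log2 scale, and 5.56% passed, beside 17.4% of all genes tested. The gene that rose was Igf2bp2, an RNA-binding protein of the IMP family that is a known target of Hmga2. It went from 754 and 886 in the controls to 2443, 2282 and 2102, a log2 fold change of 1.47 (SE 0.23, limma adjusted p = 0.0032). With libraries scaled to equal totals 3 of these genes passed. Mature let-7 itself is not measured by a messenger RNA library.

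The late genes come next, beginning with the NFI transcription factors, which late progenitors need to make Müller glia and bipolar cells and to leave the cell cycle. Nfia (Entrez 18027; chromosome 4, 97578066 to 98118876) stood at 5426 and 7314 in the controls and at 5427, 4859 and 4794 in the labelled libraries. Control 1 and labelled library 1 were at nearly the same level. Nfia differed by -0.33 on the log2 scale (SE 0.18, limma adjusted p = 0.24), with an interval for the fold change of 0.601 to 1.06.

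Nfib (Entrez 18028; chromosome 4, 82290173 to 82506751) was the most abundant NFI gene, at 22003 and 29481 in the controls and 29992, 23731 and 28586 in the labelled libraries. These overlap almost entirely. Nfib differed by 0.10 on the log2 scale (SE 0.17, limma adjusted p = 0.72), with an interval for the fold change of 0.824 to 1.39. Its sign turned to -0.12 with equal totals, -0.21 with quantile normalisation and -0.11 without control 1.

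Nfix (Entrez 18032; chromosome 8, 84704712 to 84801238) stood at 10492 and 9705 in the controls and at 5404, 7093 and 9253 in the labelled libraries. All 3 labelled libraries lie below both controls, but labelled library 3 only narrowly, and the labelled libraries differ more among themselves than library 3 does from the controls. Controls averaged 10099 ± 556 (SD, n = 2) and labelled libraries 7250 ± 1929 (SD, n = 3), a log2 difference of -0.51 (SE 0.22, limma unadjusted p = 0.039, adjusted p = 0.13), with an interval for the fold change of 0.503 to 0.979. Without labelled library 3 it was -0.70 and passed the threshold (limma adjusted p = 0.043).

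The remaining NFI gene, Nfic, is known from tooth and brain and is not among the 4 late genes. It fell from 3259 and 4311 in the controls to 1361, 1349 and 1549 in the labelled libraries, a log2 fold change of -1.40 (SE 0.22, limma adjusted p = 0.0031). The makeup of the NFI genes per kilobase of exon was as follows. The share of Nfib was 37.8% and 42.7% in the controls and 58.2%, 49.6% and 49.7% in the labelled libraries, and that of Nfic was 12.6% and 14.1% against 5.96%, 6.35% and 6.08%. The share of Nfix was 36.7% and 28.6% against 21.3%, 30.1% and 32.7%, and that of Nfia was 12.8% and 14.6% against 14.5%, 13.9% and 11.5%, both overlapping. The summed NFI level per kilobase was 3888 and 4613 in the controls and 3444, 3201 and 3844 in the labelled libraries.

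**Figure D3:**
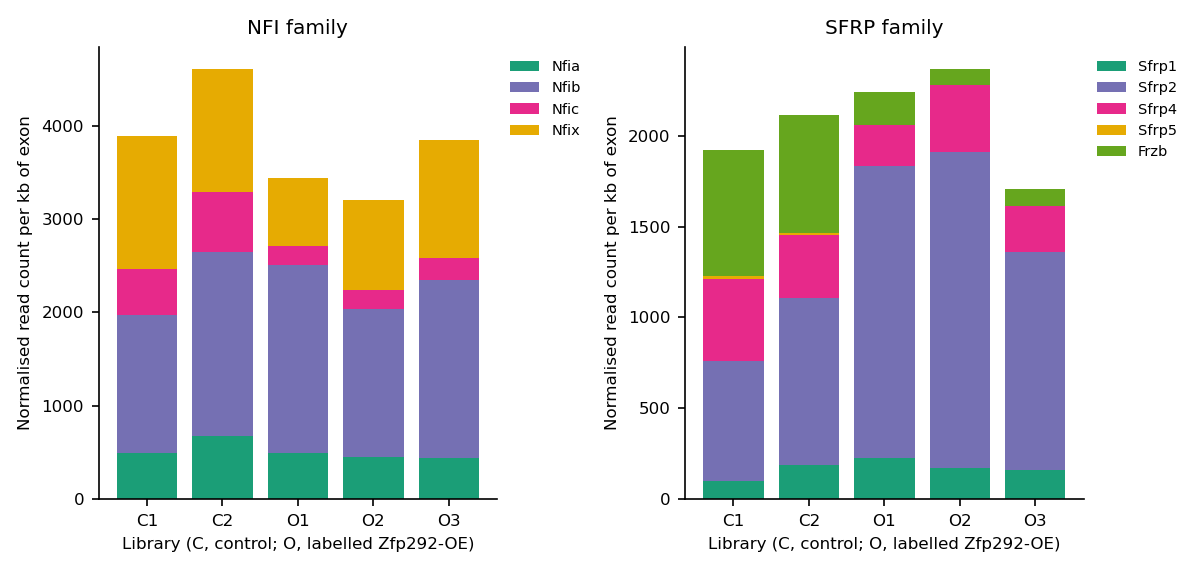
Level of each gene of the NFI family (left) and of the secreted Frizzled-related family (right), as normalised counts per kilobase of exon, stacked in 1 bar per library (C, control; O, labelled Zfp292-OE). Nfic takes 12.6% and 14.1% of the NFI bar in the controls and 5.96% to 6.35% in the labelled libraries, while Sfrp2 takes 34.6% and 43.7% of its bar in the controls and 70.3% to 73.4% in the labelled libraries.

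Casz1 (Entrez 69743; chromosome 4, 148804366 to 148954893), a zinc finger factor that promotes rod and bipolar fates over earlier and glial fates, stood at 4388 and 6136 in the controls and at 4633, 3483 and 4260 in the labelled libraries. Labelled library 1 lies between the controls and the other labelled libraries below them. The log2 fold change was -0.34 (SE 0.21, limma adjusted p = 0.29), with an interval for the fold change of 0.572 to 1.09. Casz1 works with the NuRD and Polycomb complexes, which close chromatin. Of 16 genes of these complexes 6 rose, 0 fell and 10 did not pass (median log2 fold change 0.29), beside 10% of all genes tested upwards and 7.38% downwards. The labelled libraries lay above both controls for 8 of the 16 genes and below both for 4, with the lowest log2 fold change at -1.28. In alternatives that kept both controls, 4 to 8 of these genes passed. The 4 with the smallest p were Eed (1.24) and Ezh2 (0.98), core Polycomb subunits, Rbbp7 (1.16), a histone-binding subunit of both complexes, and Hdac2 (0.97), a NuRD deacetylase. Their limma adjusted p ran from 0.0014 to 0.0027.

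NFI genes and Casz1 are made by postmitotic retinal cells as well as by late progenitors, and marker lists of rods, bipolar cells and glia moved with the labels. All 15 rod genes fell (median log2 fold change -1.96), with a summed level of 1038711 to 1225684 in the controls and 316552 to 372002 in the labelled libraries. Of 13 bipolar genes 9 fell and 4 did not pass, with sums of 241403 and 211396 in the controls and 152936, 166137 and 239559 in the labelled libraries, which overlap. Of 12 Müller glia genes 6 fell, 1 rose and 5 did not pass, with sums of 681633 and 841864 against 427785, 353130 and 437567. Of 5 astrocyte genes tested 4 fell and 1 did not pass (2 passed with no filter on low values), with sums of 52930 and 58427 against 21881, 12825 and 26587. Markers at 0 in a labelled library were Grm6 and Vsx1 (bipolar, library 2), Bhlhe23 (bipolar, library 3), Abca8a (Müller, library 1) and Pax2 (astrocyte, libraries 1 and 2), and no rod gene was at 0. The part of these cells in the levels of the late genes was not tested.

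Other genes used to place progenitors in time were read as further lists. Of 10 other early progenitor genes 2 rose, 1 fell and 7 did not pass (median log2 fold change 0.70). That is 30% past the threshold, beside 17.4% of all genes tested. Atoh7, the factor of ganglion cell competence, stood at 865 and 759 in the controls and at 4155, 5013 and 8674 in the labelled libraries, a log2 fold change of 2.80 (SE 0.30, limma adjusted p = 0.00052). Dlx2, a homeobox factor of ganglion and inhibitory neurons, changed by 1.83 (limma adjusted p = 0.044). It did not pass with edgeR (edgeR adjusted p = 0.063), with equal totals (limma adjusted p = 0.069) or with no filter on low values (limma adjusted p = 0.098). Pou2f1, which acts downstream of Ikzf1 in cone production, fell by 0.70 on the log2 scale (limma adjusted p = 0.034). This call was lost with quantile normalisation (limma adjusted p = 0.052) and with the replicate block (limma adjusted p = 0.088). Without any 1 of the labelled libraries, 1 of these 10 genes passed. Of 16 other late progenitor genes 4 rose, 3 fell and 9 did not pass (median 0.11, 43.8% past the threshold). By smallest p these were Hes5 (1.17), a Notch target, Id1 (0.92), an inhibitor of differentiation factors, Rlbp1 (-0.86), a visual cycle protein of glia, and Glul (0.63), glutamine synthetase, with limma adjusted p from 0.0015 to 0.012. The call on Glul was lost with quantile normalisation (limma adjusted p = 0.086), equal totals (limma adjusted p = 0.061) and the replicate block (limma adjusted p = 0.051). Of those 16 genes 6 are also in the Müller glia list. So the early list and the late list each held genes that rose and genes that fell.

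**Figure D4:**
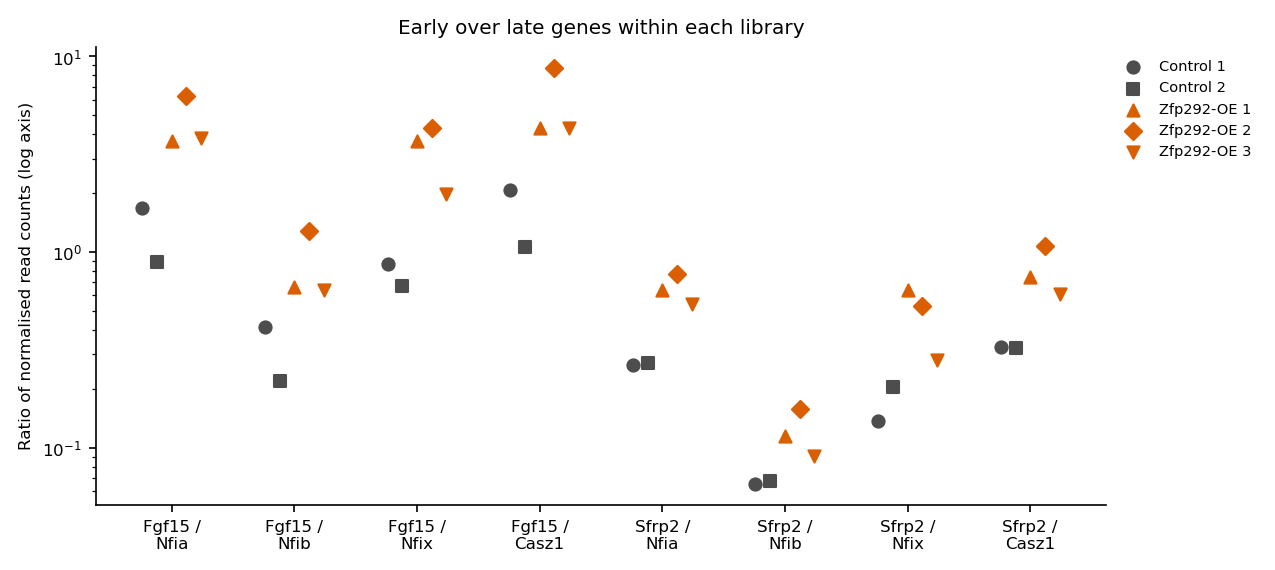
Ratio of Fgf15 or Sfrp2 to each late gene within a library, as normalised counts on a log axis, so that no scaling between libraries enters. Each point is 1 library. In all 8 ratios the 3 labelled libraries lie above both controls, and the gap is narrowest for Sfrp2 to Nfib, where the lowest labelled library is at 0.0905 and the higher control at 0.0673. Both numerators are early genes that rose, so the ratios are not separate observations. The early genes that did not rise are not shown.

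Ratios within a library do not depend on how libraries are scaled, so the early genes that rose were set against each late gene. Fgf15 to Nfix was 0.867 and 0.670 in the controls and 3.69, 4.3 and 1.98 in the labelled libraries. Fgf15 to Nfia was 1.68 and 0.889 against 3.68, 6.27 and 3.83. Fgf15 to Casz1 was 2.07 and 1.06 against 4.31, 8.75 and 4.31. Set against Nfib, the ratio of Fgf15 was 0.413 and 0.220 against 0.665, 1.28 and 0.642. The ratio of Sfrp2 to Nfix was 0.136 and 0.205 in the controls and 0.640, 0.528 and 0.280 in the labelled libraries, and to Casz1 it was 0.326 and 0.324 against 0.746, 1.08 and 0.607. These ratios were not tested, since a gene that rose forms the numerator of each. The ratio of Fgf15 to Sfrp2 was not tested either, and stood at 6.35 and 3.27 in the controls and 5.77, 8.14 and 7.10 in the labelled libraries, which overlap.

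Per kilobase of exon, the genes spanned a wide range of levels. In the controls the order was Fgf15 (2549), Nfib (1721), Nfix (1374), Sfrp2 (794), Nfia (585), Casz1 (430), Foxp1 (103), Hmga2 (65.6), Lin28b (16.9) and Ikzf1 (4.94), in normalised counts per kilobase. Sfrp2 and Nfia overlapped between the 2 control libraries, as did Nfia and Casz1, and the other neighbours in that order did not. In the labelled libraries Fgf15 was again first (7498) and Nfib second (1834), but Sfrp2 (1516) came before Nfix (986). The ranges of Sfrp2, 1201 to 1739, overlapped there with those of both Nfib, 1587 to 2005, and Nfix, 735 to 1259. Then came Nfia (462), Casz1 (337), Hmga2 (97.5), Foxp1 (93.3), Lin28b (18.8) and Ikzf1 (5.32), with Hmga2 and Foxp1 overlapping.

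The genes whose pattern over the 5 libraries lay nearest to Fgf15, by Euclidean distance between centred log2 values among 14292 genes, were Crnde (0.197), AY358078 (0.213) and Pold2 (0.231). Crnde, a long noncoding RNA gene, stood at 1303 and 940 in the controls and 3197, 4035 and 2602 in the labelled libraries. Nearest to Nfix were Btbd17 (0.0182), Rbm24 (0.0922) and Pcdhb7 (0.101). Btbd17 followed Nfix closely, at 10771 and 9981 in the controls and 5509, 7360 and 9504 in the labelled libraries, including its high value in labelled library 3. With 5 libraries such likeness is a description.

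**Figure D5:**
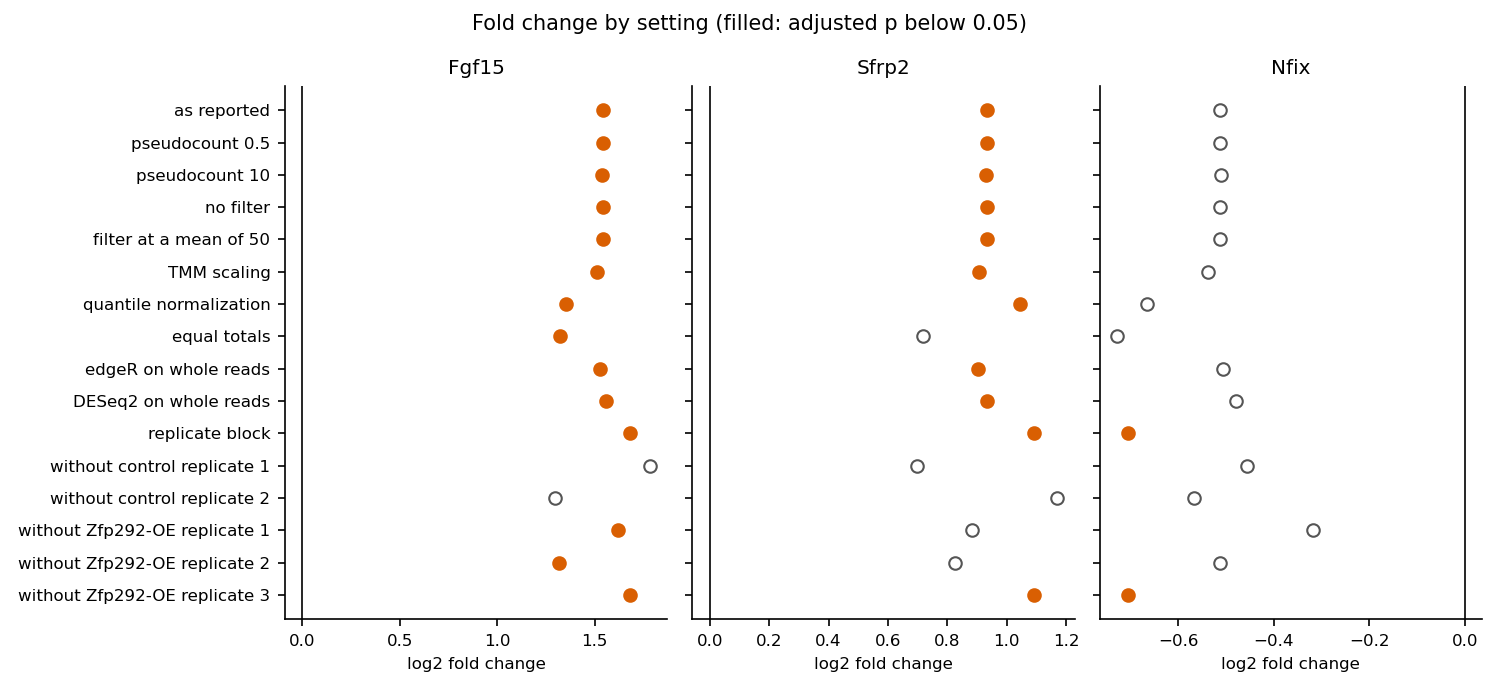
Log2 fold change of Fgf15, Sfrp2 and Nfix (labelled libraries minus controls) as reported and under the 15 alternatives, each on its own line. Filled points passed an adjusted p of 0.05 and open points did not. Fgf15 lies between 1.30 and 1.78, Sfrp2 between 0.70 and 1.17 and Nfix between -0.73 and -0.32, so none of the 3 changed direction in these settings.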

How the data were processed

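Messenger RNA of sorted retinal cells was sequenced in 5 libraries, with 1.3 µg of RNA per SMARTER library, per the labels' protocols. The submitters' processing notes name GRCm38 and mm10. No aligner, counter or annotation is given in the sources used here. The deposited values are a normalised signal: the read count of a gene divided by a factor of its library. The values show this: 100% of them are whole multiples of 1 read within 1e-06 of a read, and the deposited factors equal DESeq2's size factors. Whole reads were recovered and gave 103096224 to 137683716 reads per library, with 15373 to 16275 genes at 10 or more reads.

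Libraries were grouped by label. Genes with a mean of at least 10 entered limma 3.58.1 with a trend in R 4.3.3, on log2(value + 1), and p-values were adjusted over all tested genes. A fold change on that scale understates the change of low genes. On simulated data of this size (16316 genes, 5 sets) the test recovered 5.07% of 1.5-fold, 31.6% of 2-fold and 61.2% of 4-fold changes, and 13.3% of its calls were false. Far fewer genes were changed in each simulated set than passed in the real data. These rates depend on that share, so they need not hold for the real data. edgeR 4.0.16 and DESeq2 1.42.0 on the recovered reads, which called 2621 and 4147 genes, were alternatives, beside other pseudocounts (0.5 and 10), filters (none, and a mean of 50), scalings (TMM, quantile, equal totals), a block for the replicate number and each library left out in turn.

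The 10 genes and all lists were chosen with earlier results of these data known. The named genes are Zfp292, the 10 genes, their Foxp, Ikaros, NFI, HMGA and Lin28 paralogues, of each further list up to 4 genes past the threshold with the smallest p, and the 3 genes most like Fgf15 and Nfix. Cell type lists are given as counts and sums. Lists for amacrine and horizontal cells (0 higher and 2 lower of 11), ganglion cells (0 and 0 of 11), endothelium (2 and 0 of 6), pericytes and fibroblasts (0 and 2 of 6), pigment epithelium and lens (0 and 1 of 5) and housekeeping genes (3 and 1 of 8) were read too. The housekeeping list had a median log2 fold change of 0.59, with 5 of its 8 genes above both controls and 1 below both. Its summed level was 955535 and 790195 in the controls and 1492283, 1394450 and 1211896 in the labelled libraries. The cause of that difference was not tested. Gene positions span the whole gene in the RefSeq annotation, and per-kilobase levels use the union of a gene's exons. Of the 10 genes 8 had promoters in the RefSeq table.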

Additional observations from a re-analysis of the deposited data

How the results depend on the processing

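Leaving out 1 library at a time took the number of genes past the threshold from 2836 to between 1 and 2352, of which 0 to 1359 rose and 1 to 993 fell. The early genes past it numbered 0 to 2 and the late genes 0 to 1. The count of 1 came without either control, when limma called 0 early genes, of which 1 and 2 had an unadjusted p under 0.05 without control 1 and control 2. With 1 control left, that library is assumed to vary like the others. Equal totals gave 908 genes higher, 1977 lower and 1 early gene, and DESeq2 gave 1829 lower. Apart from the late count under the replicate block, given below, the other settings kept these counts within 1.5 times.

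Among the 10 genes, Fgf15, Sfrp2, Hmga2, Nfia, Nfix and Casz1 kept their direction in all 15 alternatives. Foxp1 turned to 0.024 with quantile normalisation. Ikzf1 turned to 0.51 with quantile normalisation, 0.066 with edgeR and 0.10 with DESeq2, and ran from -0.92 to 0.42 over the libraries left out. Lin28b ran from -0.30 to 0.74 and Nfib from -0.11 to 0.31 in the same way, and Nfib was -0.21 with quantile normalisation and -0.12 with equal totals. Zfp292 was -0.21 and -0.17 under those scalings and -0.033 to 0.12 over the libraries left out. Of the paralogues, Foxp3 was -0.11 with a pseudocount of 10, -0.56 with edgeR and -0.55 with DESeq2. Over the libraries left out it ran from -2.33 to 1.58, Ikzf3 from -1.83 to 2.85 and Ikzf5 from -0.016 to 0.60. The cause was not tested.

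The replicate numbers gave no sign of pairing: the deviations of same-numbered libraries correlated at -0.04 and -0.03 over 16316 genes. With 2 controls, the deviations of control 1 mirror those of control 2. The correlations are therefore not separate checks, and low values cannot exclude pairing. With the number as a replicate block, 2498 genes passed, the late count was 1 (Nfix, -0.70, limma adjusted p = 0.044), Ikzf1 was 0.42, Zfp292 -0.011 and Foxp3 -0.35. Labelled library 3 has no partner, so the fold changes, but not the counts or p-values, equal those without it. Groups of 2 and 3 limit all statements: the intervals of the scarce Lin28b and Ikzf1 hold changes of 2-fold in both directions.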

Other observations

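A transcript that spans 1 let-7 gene differed between the groups, and it was picked after its values were seen. Host transcripts of other let-7 genes were not read. Mir100hg, a long noncoding host transcript on chromosome 9 (41376526 to 41615185) whose annotated span holds the genes of miR-100, let-7a-2 and miR-125b-1, stood at 1778 and 2691 in the controls and at 742, 991 and 1011 in the labelled libraries. The groups did not overlap, and the log2 fold change was -1.27 (limma adjusted p = 0.016, from 0.00026 to 0.19 over its alternatives). Without control 1 it was -1.57 (limma adjusted p = 0.066) and without control 2 it was -0.97 (limma adjusted p = 0.19). Mir9-3hg, which spans a miR-9 gene, stood at 3054 and 3883 in the controls and at 4436, 4434 and 5818 in the labelled libraries, a log2 fold change of 0.50 (limma adjusted p = 0.12). Host transcripts are not the mature microRNAs, which were not measured. Prtg, a cell surface protein gene of young neural tissue, has 2 let-7 matches after its stop codon and was at 1044 and 1162 in the controls and 596, 593 and 1142 in the labelled libraries, which overlap (log2 fold change -0.58, limma adjusted p = 0.29).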
